A study of Sus scrofa with 12 samples.

Results

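The uterus of newborn gilts was compared between 2 ages at collection, 15 and 14 days after birth, over all 12 libraries of the series. The groups were taken from the age that the labels give for each animal: 4 libraries from 2 litters were labelled day 15 and 8 libraries from 4 litters were labelled day 14. All animals were crossbred gilts of a research herd. Each litter gave 1 gilt whose iCrit ratio at birth was low and 1 whose ratio was high, and the labels call lactocrine supply insufficient in the former and sufficient in the latter. The iCrit, or immunocrit, is a serum test of how much colostrum a piglet has taken up. Low and high gilts were equally many at both ages and were averaged within litters, so that the litter was the unit and 2 litters stood against 4. Of litters 1 to 6, numbered in the order of the labels, litters 4 and 5 were labelled day 15. Every gilt of one litter had one age, so that age and litter cannot be told apart beyond the spread among litters. The design text of the series gives day 14 for all 6 pairs, and only the labels of the single animals give day 15 for 2 of them.

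In the pig the uterus is unfinished at birth. During the first weeks of life the glands of the endometrium grow down from the lining epithelium into the stroma, the folds of the lining deepen and the muscle layers of the wall become distinct. Factors taken up with first milk, among them relaxin, are known to act on this growth through receptors in the uterine wall, which is what the word lactocrine describes. In whole tissue such as this, more cells of one type and more RNA in each cell cannot be told apart.

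Transcripts were measured by stranded poly(A) RNA sequencing and carry Ensembl transcript IDs. The files do not pair the 19407 IDs with genes, and a search of the 2 reference tables of gene names matched 0 of them. For this reason transcripts are given by ID only, no sequence is shown, and neither the tissue nor its cell types could be checked against marker genes. Values are normalised reads, that is, whole reads divided by 1 factor for each library.

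Depth moved with age. The day 15 libraries held 32887260 to 48306746 reads and the day 14 libraries 20809034 to 35713104. Averaged within litters, depth was 39933442 ± 1189841 reads at day 15 (SD, n = 2 litters) and 26057392 ± 5595772 at day 14 (SD, n = 4 litters), and both day 15 litters were deeper than every day 14 litter. Transcripts with at least 1 read numbered 17335 to 18268 at day 15 and 16461 to 17368 at day 14. Of the 15 ways to choose 2 of 6 litters none gives an exact permutation p under 0.0667, and depth and detected transcripts both reached that value (two-sided, adjusted p = 0.156 over 7 library measures). With the reads of every library thinned to 20809034, the number of transcripts called between the ages was 2, as it was without thinning.

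**Figure D1:**
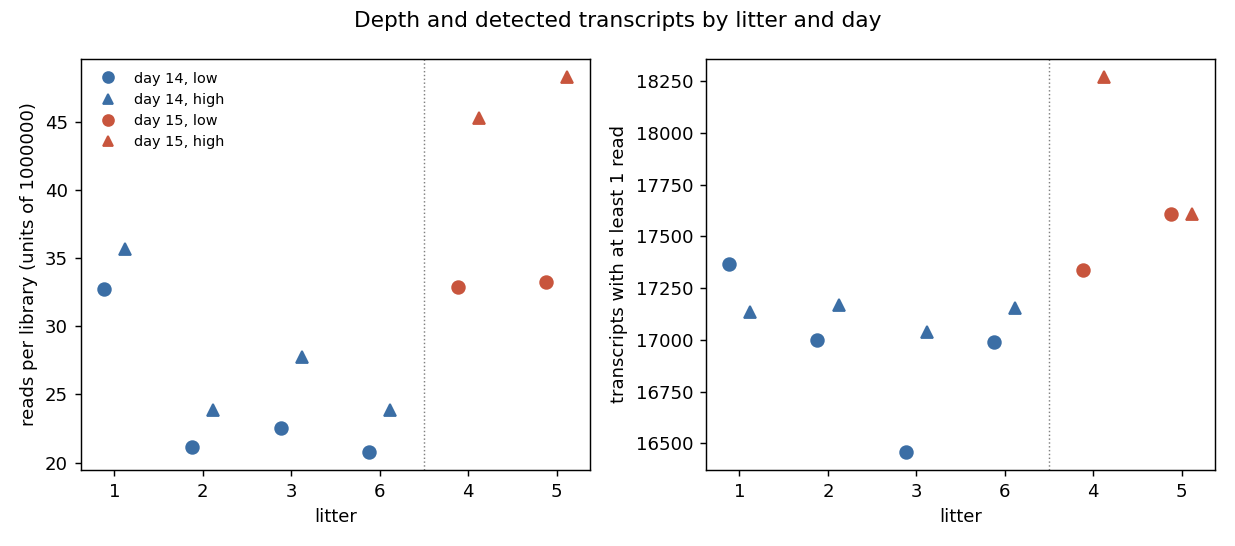
Reads per library (left, in units of 1000000) and transcripts with at least 1 read (right) against litter, 1 point for each gilt, circles for low and triangles for high iCrit, with day 14 litters left and day 15 litters right of the dotted line. The vertical axes do not start at 0. The 2 deepest libraries, at 48306746 and 45296935 reads, are high gilts of the day 15 litters.

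A pair of day 14 libraries stood apart from the others of their age. The low library of litter 3 had 333 transcripts more than 4-fold from the median of the other libraries, where the other 11 libraries had 77 to 146. The library labelled day 14, high, of litter 6 lay among the day 15 libraries instead. On the first principal component, which held 26.4% of the variance, it stood at 33.1, inside the range of 15.0 to 33.4 of the day 15 libraries, while the other 7 day 14 libraries ran from -73.0 to 10.6. On the second, which held 19.0%, it stood at -17.3, where the day 15 libraries ran from -29.5 to -6.06 and its own littermate stood at 25.3. The library most like it was the high library of litter 4, at a median absolute log2 difference of 0.177, the smallest of any pair of libraries, against 0.274 from its littermate. For 3 of the 4 day 15 libraries, the most similar of all other libraries was this one. Its age was taken as labelled. Counts of transcripts called, at an unadjusted p under 0.05 and without overlap are given with and without this library and the low library of litter 3. Distances between litters are given only with all libraries.

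**Figure D2:**
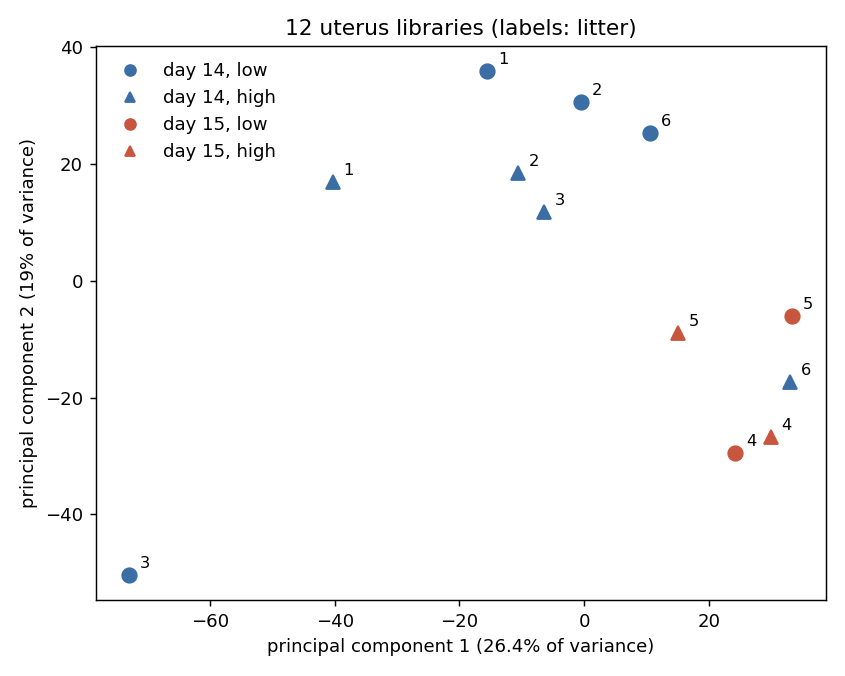
Position of the 12 libraries on the first and second principal component of log2 normalised reads over 15102 transcripts, blue for day 14 and red for day 15, circles for low and triangles for high iCrit, each numbered by its litter. The high gilt of litter 6 lies among the 4 day 15 libraries on the right, and the low gilt of litter 3 lies alone at the lower left.

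The same pattern was seen between litters. Over the 15102 transcripts tested, the 2 day 15 litters differed from each other by a median absolute log2 difference of 0.228. Pairs of day 14 litters differed by 0.229 to 0.341, and pairs made of 1 litter of each age by 0.195 to 0.373. The 2 smallest distances of all were those of litter 6 from litters 4 and 5, at 0.195 and 0.209, and both join litters of different age. From the mean of the day 15 litters, litter 6 differed by more than 2-fold for 402 transcripts, whereas litters 1, 2 and 3 did so for 1360, 876 and 1189. These distances are descriptions and were not tested.

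**Figure D3:**
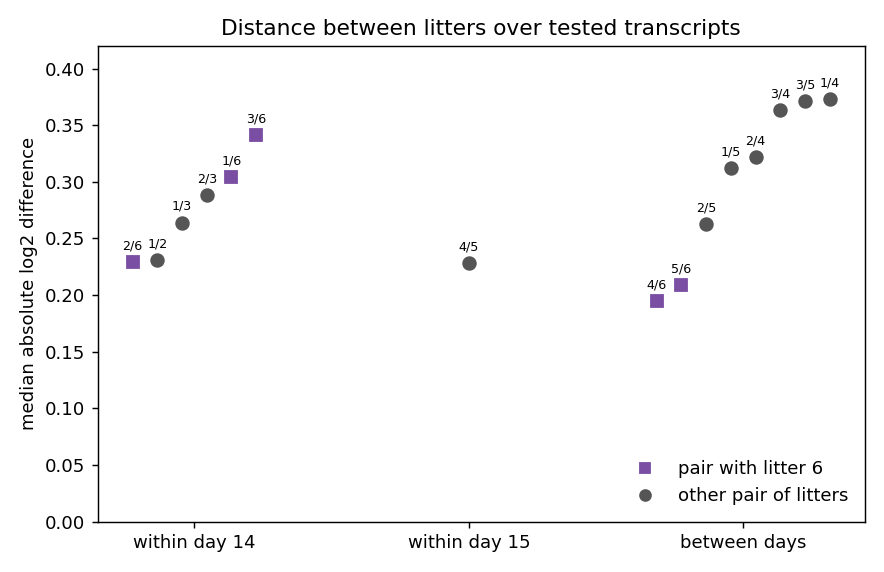
Median absolute log2 difference over 15102 transcripts for each of the 15 pairs of litters, grouped by whether the litters share an age, with pair numbers above the points and squares for pairs that hold litter 6. The 2 lowest points, at 0.195 and 0.209, are litter 6 against the day 15 litters.

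Most of the variance lay within one age. Averaged over transcripts, the difference between ages held 16.9% of the variance with 1 degree of freedom, litters of one age 39.9% with 4, and littermates 43.2% with 6. Per degree of freedom these shares were 16.9%, 9.98% and 7.20%. For the median transcript the mean square between ages was 1.11 times that among litters of one age. With 1 and 4 degrees of freedom the median of this ratio lies below 1 when ages do not differ. The ratio was not tested. Age held the largest of the 3 parts for 1900 transcripts, or 12.6%. The median SD of litter means was 0.25 on the log2 scale at day 14 and 0.16 at day 15.

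The comparison of ages asked which transcripts were higher or lower at day 15, beyond the spread among litters. Of 15102 transcripts, 2 passed an adjusted p under 0.05 in limma, or 0.0132%, with 1 higher and 1 lower at day 15. Without adjustment, 2001 transcripts, or 13.2%, had a p under 0.05, with 1060 higher and 941 lower. With no difference, 755 would be expected on average. Transcripts vary together across litters, so that the number at this p can lie far from that average with no difference between ages. Without litter 4 this number was 967, and without litter 6 it was 3216. The next smallest adjusted p after the 2 calls was 0.112. Littermates' values entered as log2(normalised reads + 1), so that changes of low transcripts are understated.

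The number called depended on the 2 doubted libraries. Without the low library of litter 3 limma called 0 transcripts, although 2257 had an unadjusted p under 0.05 and the share of variance between ages was 19.5%. Without the high library of litter 6 it called 246, of which 155 were higher and 91 lower at day 15, and both transcripts called with all libraries were among them. Then 2784 had an unadjusted p under 0.05 and the share of variance between ages was 22.3%. These last 2 measures were thus higher without either library. Without litter 6 altogether it called 430, with 291 higher and 139 lower. Litter 6 was the day 14 litter nearest to day 15, so that leaving it out widens the gap between the groups by construction, and these larger counts are no test of age. Between tools the count also differed: on the summed reads of littermates edgeR called 1 transcript, and DESeq2 called 192 of the 13635 to which it gave an adjusted p, with 78 higher and 114 lower.

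For most transcripts the estimated difference between ages was small. In absolute terms the median log2 difference was 0.23, 9 in 10 transcripts lay under 0.64, and 99 in 100 under 1.34. A difference of more than 2-fold was seen for 436 transcripts, or 2.89%, of which 291 were higher and 145 lower at day 15. Of the 436, 307 lay in the lowest of the 5 bands of level given below, where the median log2 difference was 0.0887. In the other bands that median was -0.0298 to -0.00822. Whether this shift follows depth was not tested. Over all transcripts the median standard error was 0.22, and for 72.0% of them the 95% interval of the difference lay within 2-fold in either direction. It lay within 1.5-fold for 30.3%. The larger differences were those of low transcripts. Transcripts were parted into 5 bands of equal size by their mean log2(normalised reads + 1), turned back into normalised reads. In the lowest band, of 0.715 to 73.0, 10.2% differed by more than 2-fold, and 0.497% did in the highest, from 1990 upwards. The share at an unadjusted p under 0.05 ran the other way, from 7.61% in the lowest band to 17.7% in the highest. The standard errors of these bands had medians of 0.45 and 0.16. At that p more transcripts were higher than lower at day 15 in 4 of the 5 bands, with 134 against 96, 212 against 143, 212 against 176 and 281 against 211 from the lowest up. In the highest band 221 were higher and 315 lower. Over all bands the larger side depended on the setting. It was 1060 higher and 941 lower here, and 989 higher and 1001 lower with littermates averaged before the log.

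**Figure D4:**
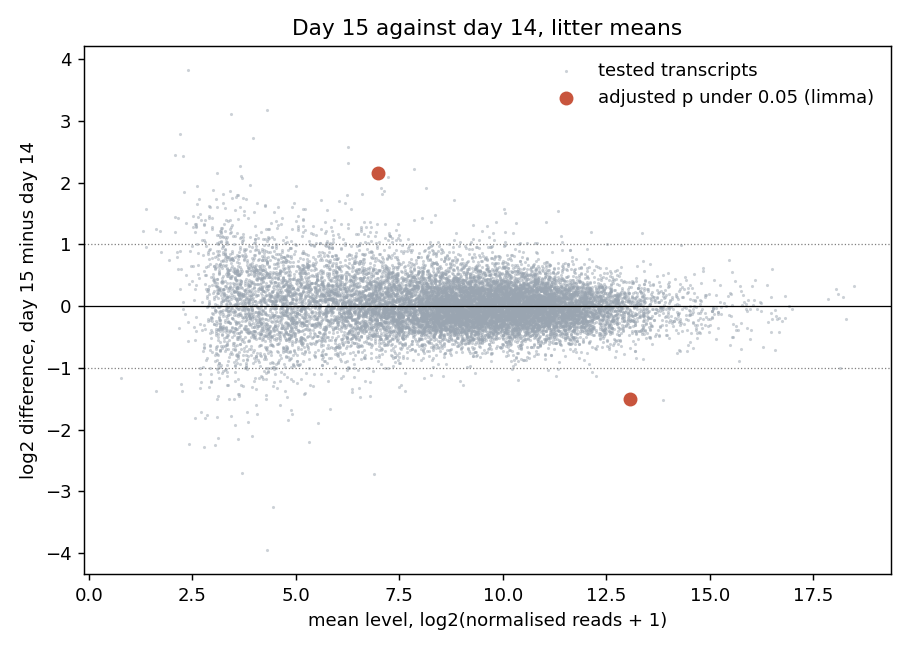
Log2 difference between the means of the day 15 and day 14 litters against the mean level of each of the 15102 transcripts, with dotted lines at 2-fold and the 2 transcripts that passed an adjusted p under 0.05 in red. The cloud narrows from left to right, and the red points lie at 2.15 and -1.50.

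The values of all 4 day 15 libraries lay outside those of all 8 day 14 libraries for 305 transcripts, or 2.02%, with 151 above and 154 below. Of these, 47 also differed by more than 2-fold. Over the means of litters the ages did not overlap for 3628 transcripts, or 24.0%, with 1858 above and 1770 below. Of the 15 ways to choose 2 of 6 litters, those that take the 2 highest or the 2 lowest give no overlap. A part of this share thus arises with no difference between ages. Without the low library of litter 3 the libraries of 391 transcripts did not overlap. Without the high library of litter 6 those of 1440 did not, against 305 with it, so that for most of the 1440 this 1 library made the overlap. Leaving out a whole litter gave 388 without litter 1, 405 without litter 2, 458 without litter 3, 1417 without litter 4, 1683 without litter 5 and 1745 without litter 6.

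ENSSSCT00000054209 rose. The 4 day 15 libraries held 258 and 355 normalised reads in the low and high gilt of litter 4, and 436 and 350 in those of litter 5. The 8 day 14 libraries ran from 51.1 to 193 with a median of 72.8. All day 15 libraries were above all day 14 libraries, and the highest day 14 value, 193, was that of the high gilt of litter 6, whose littermate had the lowest, 51.1. The means were 350 ± 61.4 at day 15 (SD, n = 2 litters) and 83.3 ± 26.0 at day 14 (SD, n = 4 litters). The log2 difference was 2.15 with a standard error of 0.26 and a 95% interval of 1.58 to 2.72, a 4.44-fold difference, and limma gave an adjusted p of 0.0236. It rested on 36 to 592 reads per library. Without the high library of litter 6 the log2 difference was 2.39, with an adjusted p of 0.00448 in limma. That library had the highest day 14 value, so that this p is no test of age. With all litters the call held in DESeq2 (adjusted p = 5.31e-08) and in limma-voom (adjusted p = 0.0394). The call did not hold in edgeR (adjusted p = 0.0750), or without the low library of litter 3 (adjusted p = 0.0846 in limma). With all libraries in limma it was lost with TMM scaling (adjusted p = 0.104) and with littermates averaged before the log (adjusted p = 0.0797). It was also lost in limma without litter 2, 3, 4 or 5, at adjusted p of 0.0628, 0.0703, 0.0746 and 0.256, with log2 differences of 1.97 to 2.34. Age held 83.0% of the variance of this transcript, litters of one age 3.57% and littermates 13.4%.

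ENSSSCT00000060129 fell. Its day 15 values were 3489 and 4409 normalised reads in the low and high gilt of litter 4, and 5034 and 4276 in those of litter 5. The day 14 values ran from 7377 to 19970 with a median of 11518. All 4 day 15 libraries lay below all 8 day 14 libraries. Here the high gilt of litter 6, at 10972, lay with the day 14 libraries. The means of litters were 4302 ± 499 at day 15 (SD, n = 2 litters) and 12732 ± 2530 at day 14 (SD, n = 4 litters). The log2 difference was -1.50 with a standard error of 0.18 and a 95% interval of -1.90 to -1.10, with an adjusted p of 0.0236 in limma. Each library held 3924 or more reads of it, so that counting error was small beside the spread among gilts. With all litters the call held in DESeq2 (adjusted p = 5.82e-10) and in limma-voom (adjusted p = 0.0394). The adjusted p was 0.0570 in edgeR and 0.157 in limma without the low library of litter 3, so that this call too was lost in both. Without the high library of litter 6 the log2 difference was -1.56, with an adjusted p of 0.00648 in limma. That library was singled out from these data, so that this p is no test of age. In limma without litter 2, 3, 4 or 5 the adjusted p was 0.0633, 0.0703, 0.126 and 0.0796, and the log2 difference stayed between -1.62 and -1.38.

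The transcript with the next smallest p among higher values, ENSSSCT00000047279, did not pass the threshold. It had 1962 and 2481 normalised reads in the low and high gilt of litter 4, and 2359 and 1950 in those of litter 5. In 7 of the 8 day 14 libraries it had 494 to 763, and in the high gilt of litter 6 it had 2409. The ages thus overlapped through 1 library, which lay inside the day 15 range while its littermate had 502. Day 15 exceeded day 14 by 1.58 on the log2 scale (standard error 0.24, adjusted p = 0.112 in limma). Without the high library of litter 6 the difference was 1.86, with an adjusted p of 0.00267 in limma. That library was singled out from these data and lay in the day 15 range here. Leaving it out thus widens the gap by construction, and this p is no test of age. With all litters, DESeq2 called this transcript (adjusted p = 0.0112).

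ENSSSCT00000057910, the next among lower values, also missed the threshold. Its day 15 values were 252 and 203 normalised reads in the low and high gilt of litter 4, and 188 and 247 in those of litter 5. The day 14 values ran from 291 to 845 with a median of 515, so that the ages did not overlap. Littermates of day 14 differed widely, with 443 and 587 in the low and high gilt of litter 1, 845 and 291 in litter 2, 624 and 311 in litter 3, and 789 and 310 in litter 6. The means of litters were 222 ± 7.14 at day 15 (SD, n = 2 litters) and 525 ± 44.1 at day 14 (SD, n = 4 litters). Age held 54.5% of the variance, littermates 44.6% and litters of one age 0.906%. The log2 difference was -1.13 (standard error 0.18, adjusted p = 0.112 in limma). Without the high library of litter 6 it was -1.30, with an adjusted p of 0.0300 in limma. That library was singled out from these data, so that this p is no test of age. DESeq2 with all litters gave an adjusted p of 7.66e-07. With 1 gilt per litter the log2 difference was -1.58 from the low gilts and -0.68 from the high gilts. Whether these estimates differ was not tested.

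The exact permutation p over litters was 0.0667 for each of these 4 transcripts, the smallest that 2 against 4 litters can give. They were selected for their small p, so that neither this value nor their shares of variance between ages add support. Averaged over all tested transcripts, that share was 16.9%.

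ENSSSCT00000045121 was the only transcript called by edgeR with all litters (1 of 15102, or 0.00662%), and it was chosen after its values were seen. It had 340 reads in the high gilt of litter 4 and 1946 in the high gilt of litter 5, and exactly 1 read in each of the other 10 libraries, the low gilts of both day 15 litters included. No other transcript had exactly 1 read in more than 7 libraries. In the deposited raw counts those 10 values were not whole. They ran from 0.691 to 1.18, and each divided by the factor of its library gave 0.996 to 1.01, so that they followed the scaling of the libraries. For this reason no fold change is given here. The adjusted p was 0.0172 in edgeR and 0.112 in limma. In limma with all libraries it passed the threshold with a pseudocount of 5 (adjusted p = 0.0214), without a filter (0.0284), with TMM scaling (0.00283) and with littermates averaged before the log (0.00454), and it was called in 12 of 26 alternatives. It passed the filter of 10 normalised reads only through the day 15 litters, with means of 102 and 626 against 0.889 to 1.32 at day 14. The alternatives share the same libraries, so that neither the calls nor their number add support for a difference between ages.

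**Figure D5:**
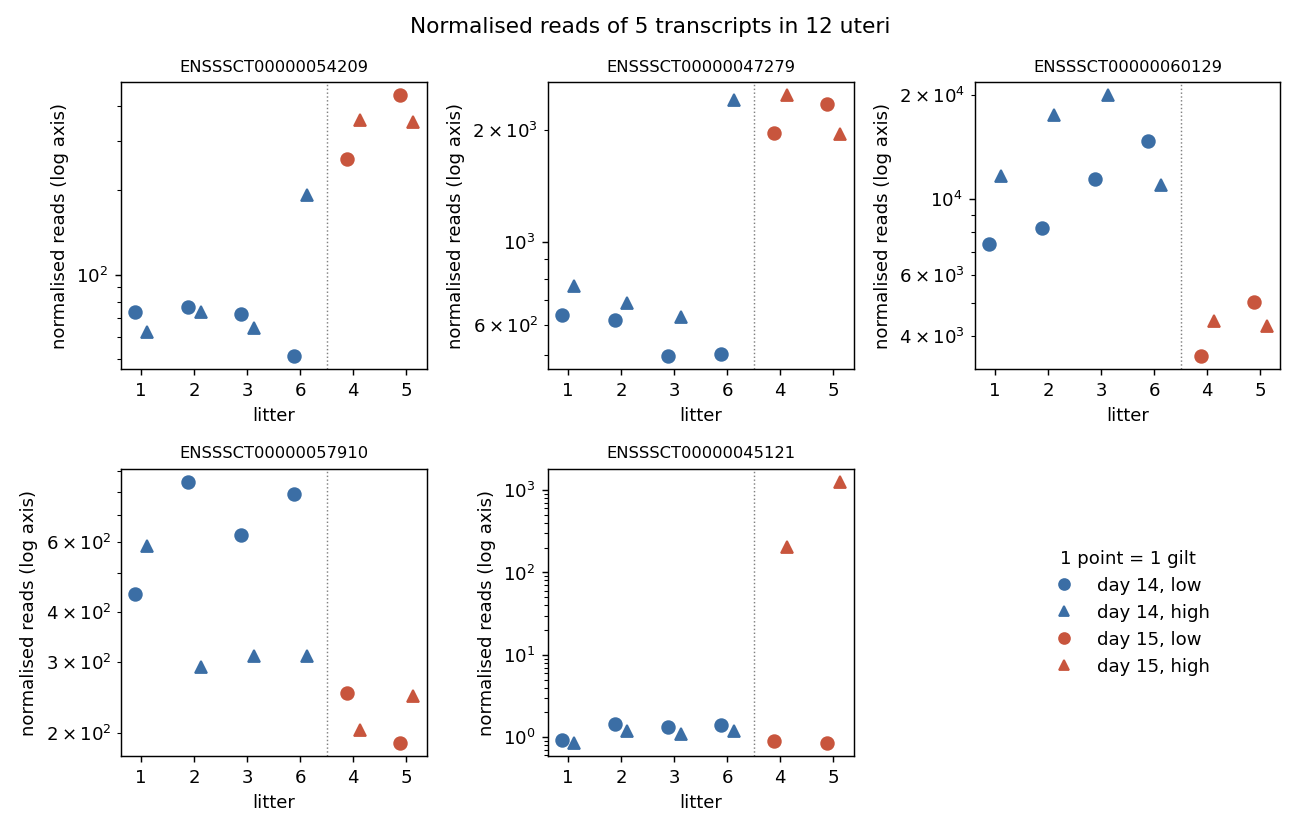
Normalised reads on a log axis against litter for 5 transcripts, 1 point for each gilt, circles for low and triangles for high iCrit, with day 14 litters left and day 15 litters right of the dotted line. In the first and second panel the high gilt of litter 6 stands above the other day 14 gilts, and in the last panel only the high gilts of litters 4 and 5 leave the level of 1 read.

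The ages were also compared with 1 gilt taken from each litter. In the low gilts alone 1676 transcripts had an unadjusted p under 0.05 and limma called 0, and in the high gilts alone 605 had and limma called 1, which was ENSSSCT00000045121. The values of the ages did not overlap for 3811 transcripts in the low and 1723 in the high gilts. The high gilts include that of litter 6 and the low gilts that of litter 3. The difference between these fits was not tested.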

How the data were processed

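The authors deposited 1 table with 3 blocks of values for the 12 libraries. Per the submitters' processing notes, the tools were DESeq2, edgeR, bedtools, Cufflinks, TopHat2 2.1.1, Trimmomatic 0.36 and FastQC 11.5, with no role stated for any. The genome build, the annotation and whether counting used strand were not stated there. The first block shares its rows with the transcript IDs. Its deposited signal equals whole reads divided by 1 factor for each library (100% of values whole within 0.001 reads), and these factors equalled DESeq2's size factors. The deposited raw counts are estimated counts, 10.7% of the values being more than 0.001 from a whole number, and are not on the rows of the IDs; they gave only the factors, the totals and the raw values of 1 transcript. That the IDs belong to the signal is taken from their filling the same 19407 rows of 22898. A further 12 columns of values per sample, headed RPKM, were not used.

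Signal was taken as log2(value + 1), averaged over littermates, and fitted by age in limma 3.58.1 (trend, robust) in R 4.3.3, over 15102 transcripts with a litter mean of at least 10 in at least 2 litters, with Benjamini-Hochberg adjustment at 0.05. No block for litter can stand beside age. Alternatives used edgeR 4.0.16 and DESeq2 1.42.0 on reads recovered from the signal and summed over littermates, limma-voom, other scalings, filters and pseudocounts, thinned reads, 1 gilt per litter, and left-out litters. The method was tested on simulated data. The limma p-values are moderated: the spread of each transcript among these litters is drawn towards that of transcripts of like level. The residual degrees of freedom were 4 and the median prior degrees of freedom 7.96. The labels tie these litters to no extraction or sequencing batch. In each direction the 2 transcripts of smallest p were named, out of those with at least 10 normalised reads in every litter of the higher age. Of 19 gene lists, 0 had a tested member. The comparison, lists and tests were chosen with earlier results of these data known.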

Additional observations from a re-analysis of the deposited data

Results flagged for a closer look

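Values were compared in 24 sets of 4 or 8 libraries of one age (7 library measures and 5 transcripts at each age). Of these sets, 5 held a value far from the rest by Dixon's criterion. About 1.2 would be expected for independent sets not chosen from the data. The 5 transcripts were named from these values, and some library measures are related. The count of 5 against 1.2 is thus no test. Among day 14 libraries, the low library of litter 3 had the fewest transcripts with at least 1 read, 16461, the next having 16991. It also had 333 transcripts more than 4-fold from the median of the remaining 11 libraries, against 146 in the next. The high library of litter 6 was far above the other day 14 libraries for ENSSSCT00000054209, at 192.94 normalised reads against 76.666 for the next, and for ENSSSCT00000047279, at 2408.8 against 762.62. Among day 15 libraries, the high library of litter 5 stood apart for ENSSSCT00000045121, at 1250.2 normalised reads, the next being 204.01 in the high library of litter 4. Whether any of these values comes from the animal, the tissue piece or the library was not tested.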

How the results depend on the processing

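The alternatives that left out the high library of litter 6, litter 6 in edgeR and DESeq2, or the low library of litter 3 in edgeR were added after seeing the data. Calls numbered 2, 1 higher and 1 lower at day 15, with all libraries in limma. With a pseudocount of 5, and without a filter, 2 were higher. The low gilts alone gave 0 calls, 0 higher and 0 lower, and the high gilts alone 1 call, 0 lower. For these fits 3811 and 1723 transcripts did not overlap, which follows in part from comparing fewer libraries, and the high gilts had 605 at an unadjusted p under 0.05. For ENSSSCT00000045121 the fitted log2 difference, which rests on libraries at 1 read and is no measured fold, was -0.28 in the low gilts, all at 1 read, and reached 8.56 in other alternatives. edgeR gave 1 call, 0 lower, and the same without the low library of litter 3; DESeq2 gave 192, 78 higher and 114 lower. limma without the low library of litter 3 gave 0 calls, 0 higher and 0 lower. Without the high library of litter 6, limma gave 246 calls, 155 higher and 91 lower, a share of variance between ages of 22.3% and 1440 transcripts without overlap. Without litter 6, edgeR gave 399 calls, 298 higher and 101 lower, with 3261 at an unadjusted p under 0.05, and DESeq2 1537 calls, 864 higher and 673 lower, with 3534. Leaving out each litter in turn gave 1 to 430 calls, 0 to 291 higher and 1 to 139 lower, 967 to 3216 transcripts at an unadjusted p under 0.05, a share of variance of 15.0% to 24.45%, and 388 to 1745 transcripts without overlap. With litter 4 or 5 left out, the lone day 15 litter is assumed to vary like the day 14 litters. The cause of these changes was not tested. ENSSSCT00000054209 was called in 15 of 26 alternatives, with log2 differences of 1.97 to 2.39, and ENSSSCT00000060129 in 17 of 26, with -1.74 to -1.26. No paired analysis was possible because each litter has a single age, so that no litter or replicate number is shared between the groups. Thinning to the smallest library gave 2 calls and 2028 transcripts at an unadjusted p under 0.05.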
